A study of Mus musculus with 18 samples.

Results

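Cytosolic ribosomal protein genes encode the proteins of the small and large subunits of the ribosome that translates nuclear mRNAs. They were followed in mouse ovarian follicles cultured with anti-Müllerian hormone (AMH). The members were the probe sets whose single annotation symbol was an Rpl, Rps, Rplp or Rpsa symbol, with pseudogenes and S6 kinases left out, and each gene was represented by its brightest probe set. The rule gave 49 genes, on 105 probe sets, of the 18193 genes with a probe set of 1 symbol. They were 21 small subunit genes, 20 large subunit genes, 2 stalk genes (Rplp0 and Rplp2) and 6 paralogs (Rpl3l, Rpl7l1, Rpl22l1, Rpl39l, Rps4l and Rps27l). Another 28 ribosomal protein genes, among them Rpl3, Rpl5, Rpl10 and Rplp1, were named only on probe sets that list several symbols and were not members.

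RNA came from preantral to small antral follicles of female C57BL/6Ntac mice aged 6 to 8 weeks. Follicles of 7 mice were pooled and split over vehicle, 50 and 200 ng/mL recombinant AMH, and there were 3 pools at 12 h and 3 others at 24 h, which gave 18 arrays. Every culture, vehicle included, also held FSH at 80 IU/L and LH at 10 IU/L. The follicles carried no genetic change, and each culture was a mixture of oocytes and somatic cells from pooled animals, so the number of cells of a type and the RNA per cell cannot be told apart. The labels of the 12 h AMH samples give 12 h in the title and 24 h in the description, and 12 h was used.

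A ribosome holds 1 copy of nearly every ribosomal protein, and cells tend to make these proteins in matched amounts. Many of their mRNAs begin with a short pyrimidine tract (the TOP motif), through which the mTORC1 pathway raises or lowers their translation, so a change in ribosome production need not show in mRNA levels. In the ovary, growing oocytes store ribosomes for the embryo, while granulosa cells need them to proliferate. AMH is a granulosa cell hormone of the TGF-beta family that restrains follicle growth.

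The start sites of the members are shown first, because a shared start is the best-known common feature of these genes. RefSeq promoters (build GRCm38.p6) were found for 43 of the 49 genes, 51 promoters in all. Each line gives the 15 bases before and the 15 bases from the annotated start, 5′ to 3′ on the gene's strand. Capitals mark an unbroken run of at least 5 C or T bases that reaches within 5 bases of the start. The set pairs members with and without such a run, among them the stalk genes, the Rpl22 paralogs and some members described singly below.
Rpl7a, chr2:26910792-26910821, plus strand: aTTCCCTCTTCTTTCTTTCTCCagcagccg
Rplp2, chr7:141447636-141447665, plus strand: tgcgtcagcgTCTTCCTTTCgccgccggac
Rplp0, chr5:115559452-115559481, plus strand: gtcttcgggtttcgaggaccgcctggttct
Rps6, chr4:86857353-86857382, minus strand: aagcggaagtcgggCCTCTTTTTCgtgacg
Rpl14, chr9:120571502-120571531, plus strand: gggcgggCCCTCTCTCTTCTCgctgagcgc
Rpl22l1, chr3:28805493-28805522, plus strand: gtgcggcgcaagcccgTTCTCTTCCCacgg
Rpl22, chr4:152324421-152324450, plus strand: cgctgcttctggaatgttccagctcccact
Rps25, chr9:44407699-44407728, plus strand: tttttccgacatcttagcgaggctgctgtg

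The run was 21 bases long at Rpl7a, which encodes a large subunit protein, and 10 bases at the stalk gene Rplp2. The windows of Rplp0, Rpl22 and Rps25 held no such run at the annotated start. A run was found in 27 of the 51 member promoters (52.9%), against 31.4% of all 32851 promoters in the table. The word CCGGAAG, searched on both strands from 250 bases before to 50 after the start, was in 41.2% of member promoters and 8.86% of all promoters. For AAGATGG the shares were 15.7% and 6.34%, for TATAAA 11.8% and 13.6%, and for GGGCGG 52.9% and 35.7%. The next lines show the 100 bases before the start of Rpl38, whose probe set is among the brightest, and of Rps25, described singly below, with CCGGAAG in capitals.
Rpl38, chr11:114668480-114668579, plus strand: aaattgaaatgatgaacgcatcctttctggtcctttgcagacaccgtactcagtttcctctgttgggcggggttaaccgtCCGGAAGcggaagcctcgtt
Rps25, chr9:44407614-44407713, plus strand: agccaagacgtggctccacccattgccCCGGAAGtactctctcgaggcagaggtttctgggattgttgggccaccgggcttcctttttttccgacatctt

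Rpl38 and Rps25 both held the word, with its first base at -20 and -73 from the start. A letter match is not a binding site. The differences between doses were also alike with and without a pyrimidine run. At 200 ng/mL AMH and 12 h the 26 tested genes with a run had a median log2 difference from vehicle of 0.34, and the 14 without one had 0.32. At 200 ng/mL and 24 h the medians were -0.08 and -0.11.

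Signals are the authors' MAS5 intensities on a linear scale, and 46 of the 49 genes lay above the filter on dim probe sets and were tested. Rps16, Rpl3l and Rpl37 were below it. Rps16 had signals of at most 1.9 and Rpl3l of at most 3.9 on any array. These values describe these probe sets, since brightness depends on the probes and does not rank genes by RNA amount. Of the 46, 36 or 37 were above the 98th percentile of all signals on each of 17 arrays.

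Of the 18 arrays, the one labelled replicate 3 of 50 ng/mL AMH at 12 h is given apart. It is in no value below unless said, but it did enter the choice of probe sets and the filter. Both used the mean log2 signal over all 18 arrays. By the other 17 arrays alone, 44 of the 49 genes kept the same probe set, all but Rpl35, Rpl7, Rps10, Rps28 and Rps9. The 18S rRNA control probe sets of the array given apart averaged a signal of 56539, against 2605 to 7165 on the other 17. Its hybridisation controls averaged 32128, against 1582 to 3879. Its median Pearson correlation with the other arrays, over probe sets, was 0.615, against 0.920 to 0.983. The AMH 200 ng/mL array of the same pool remained in, but it was at the end of the range of the 17 on many measures. It had their highest poly-A spike (4846), hybridisation (3879) and 18S (7165) controls and the highest member median (4867). It also had the lowest correlation (0.920) and the lowest median over all probe sets (18). The follicle labels were checked with defining markers: over the 17 arrays the granulosa genes Foxl2 and Inha had medians of 654 and 1807, and the oocyte genes Zp3 and Gdf9 had 654 and 395. Zp3 ranged from 8.2 to 1786. The granulosa genes Fshr and Amh were dim, with medians of 56 (1.5 to 213) and 21. The median over all probe sets was 18 to 36 on these arrays. Of the leukocyte genes, Ptprc was at most 13, while Tyrobp ranged from 52 to 248 with a median of 133.

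The ribosomal protein genes moved as 1 block from array to array. The median member signal of an array lay between 2113 and 4867 over the 17 arrays. It averaged 2810 ± 312 (SD, n = 3) in 12 h vehicle, 2947 ± 422 (n = 2) at 50 ng/mL and 3542 ± 1148 (n = 3) at 200 ng/mL. After 24 h it was 2501 ± 375 in vehicle, 2636 ± 735 at 50 ng/mL and 2375 ± 139 at 200 ng/mL (n = 3 each). The groups of each time overlapped, and the widest spreads came from 2 arrays, replicate 3 of 200 ng/mL AMH at 12 h (4867) and replicate 1 of 50 ng/mL at 24 h (3477).

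**Figure D1:**
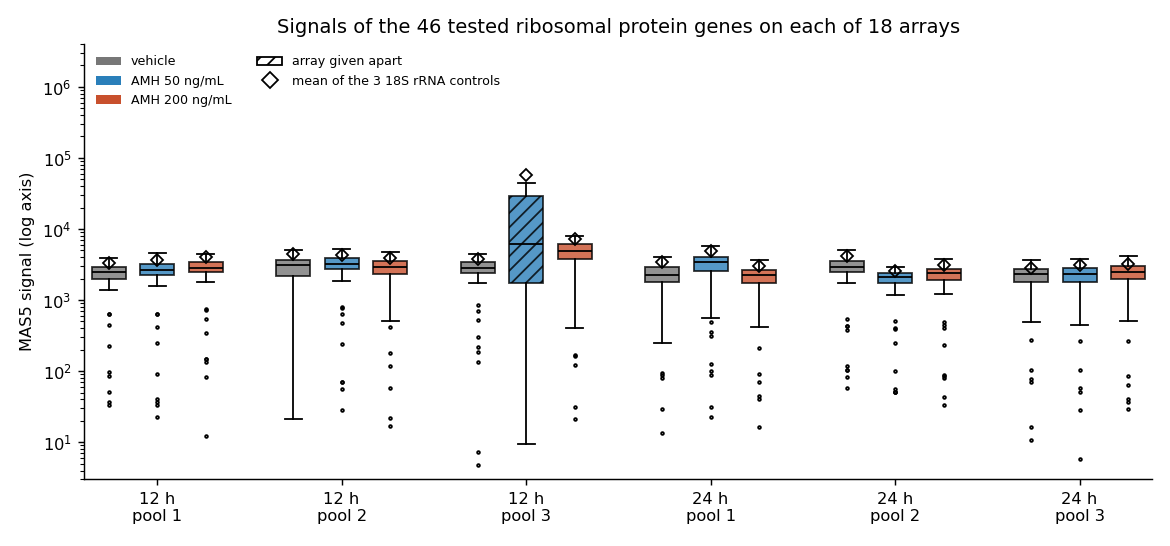
Signals of the 46 tested ribosomal protein genes on each of the 18 arrays (log axis, MAS5 signal; boxes are quartiles over genes), with the mean of the 18S rRNA control probe sets as diamonds. The box medians stay between 2113 and 4867 on 17 arrays, while the array given apart has a far wider box and an 18S value of 56539.

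The SD of log2 signal over the 17 arrays had a median of 0.31 per member, and 0.09 once the member median of each array was subtracted. The SD became smaller in 41 of 46 members. The same subtraction within lists of related genes took 22 other TOP mRNA genes from 0.25 to 0.12, 55 ribosome biogenesis genes from 0.30 to 0.23 and 76 mitochondrial ribosomal protein genes from 0.24 to 0.22. The lists were not matched for brightness. The median log2 signal of a list on an array was 11.06 to 12.25 for the members and 10.66 to 11.48 for the TOP genes. It was 8.54 to 9.35 for the biogenesis genes and 9.06 to 9.35 for the mitochondrial ribosomal protein genes. Among the members this SD also differed with brightness, as given below. Large and small subunit genes kept step. The median log2 signal of the large subunit genes minus that of the small subunit genes stayed between -0.08 and 0.19 on the 17 arrays.

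Members split by brightness in how closely they followed the block. The 37 members with a mean log2 signal above 10 had relative SDs of 0.03 to 0.16, and the 9 dimmer ones had 0.28 to 0.96. The 9 were Rpl39l, Rps27, Rpl39, Rps4l, Rps6, Rpl12, Rpl14, Rps25 and Rpl7l1, and the split was chosen after the values were seen. Rplp0, the scaffold of the stalk that recruits translation factors, was typical of the bright members: its signals in 12 h vehicle were 2374, 2990 and 2943, at 50 ng/mL 2436 and 3141, and at 200 ng/mL 2668, 2931 and 4720. After 24 h they were 2222, 2677 and 2420 in vehicle, 3498, 2096 and 2225 at 50 ng/mL, and 2107, 2349 and 2595 at 200 ng/mL. The high values of Rplp0 fell on the same 2 arrays as those of the whole block, and its groups of each time overlapped.

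The first comparisons asked how AMH changed these mRNAs after 12 h. At 50 ng/mL the members were slightly higher than vehicle, with 43 of 46 above 0 and a median fitted log2 difference of 0.23, beside -0.05 over all 22518 probe sets tested. Both subunits contributed: 19 of 19 large subunit genes had a positive value (median 0.24), as did 19 of 20 small subunit genes (median 0.23). In the 2 pools measured directly the medians were 0.13 and 0.08. The fit borrows the third pool through its other doses, so its median lies above both, and without pool 3 it was 0.12. No member passed the test (limma, adjusted p), and 1, Rps25, had an unadjusted p under 0.05, against 5.71% of all probe sets. In both pools 35 of the 46 were higher, where 26.1% of all probe sets were, and 1 (Rpl39l) was lower, where 28.6% were. Because the members move together on an array, these 35 are not separate observations.

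At 200 ng/mL and 12 h the median was 0.33, with 43 of 46 members above 0, beside -0.08 over all probe sets. The pools did not repeat this size. Their medians were 0.22, -0.02 and 0.80, and the fitted median was 0.10 without pool 3 and 0.51 without pool 2. No member passed in limma, and Rps25 and Rpl22l1 had an unadjusted p under 0.05, where 11.4% of all probe sets did. In all 3 pools 10 of 46 members were higher, against 8.77% of all probe sets, and 0 were lower, against 14.4%. The 10 were Rpl22l1, Rpl27a, Rpl35, Rpl37a, Rpl8, Rps25, Rps3a1, Rps4x, Rps7 and Rps9. Between the doses, 200 minus 50 ng/mL, the fitted median was 0.09, but the 2 pools measured directly went opposite ways, at 0.12 (42 of 46 higher) and -0.13 (42 of 46 lower). The fitted value was 0.002 without pool 3, 0.25 without pool 2, 0.24 without the block and 0.0028 after quantile normalization. There were 4 members higher (background 24.7%) and 4 lower (23.6%) in both pools, and the 1 member with an unadjusted p under 0.05 was Rpl39l (5.65%).

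After 24 h no common direction was seen at 50 ng/mL, and values at 200 ng/mL were slightly below vehicle. At 50 ng/mL 20 members were above 0 and 26 below, with a median of -0.01, beside -0.00483 over all probe sets. No member passed in limma and 0 had an unadjusted p under 0.05 (2.7% of all probe sets). None was higher in all 3 pools (10.8%), and Rpl12, Rpl7l1 and Rps6 were lower in all of them (12.2%). The pools differed widely, with medians of 0.49, -0.48 and -0.01: 43 of 46 members were above vehicle in pool 1, and 46 of 46 were below it in pool 2. The fitted median was -0.24 without pool 1, 0.25 without pool 2 and -0.03 without pool 3.

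At 200 ng/mL and 24 h 42 of 46 members were below 0 and the median was -0.10, with 20 of 20 small subunit genes below 0. The pool medians were -0.08, -0.33 and 0.11, and the fitted median was 0.01 without pool 2. No member passed in limma, and the 1 with an unadjusted p under 0.05 was Rps4l (1.66% of all probe sets). Rpl39 was higher in all 3 pools (15.7%), and Rpl12, Rpl8, Rps25 and Rps4l were lower in all of them (11.9%). For 200 minus 50 ng/mL the median was -0.11 (0.12 without pool 1), with 41 of 46 below 0, 2 higher (17.2%) and 2 lower (11.6%) in every pool, and 0 with an unadjusted p under 0.05 (4.17%). The test of the dose effect at 24 h minus that at 12 h had medians of -0.22 at 50 ng/mL and -0.42 at 200 ng/mL over the members. It called 0 members in limma, with 1 and 3 at an unadjusted p under 0.05, where 3.26% and 7.19% of all probe sets were.

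**Figure D2:**
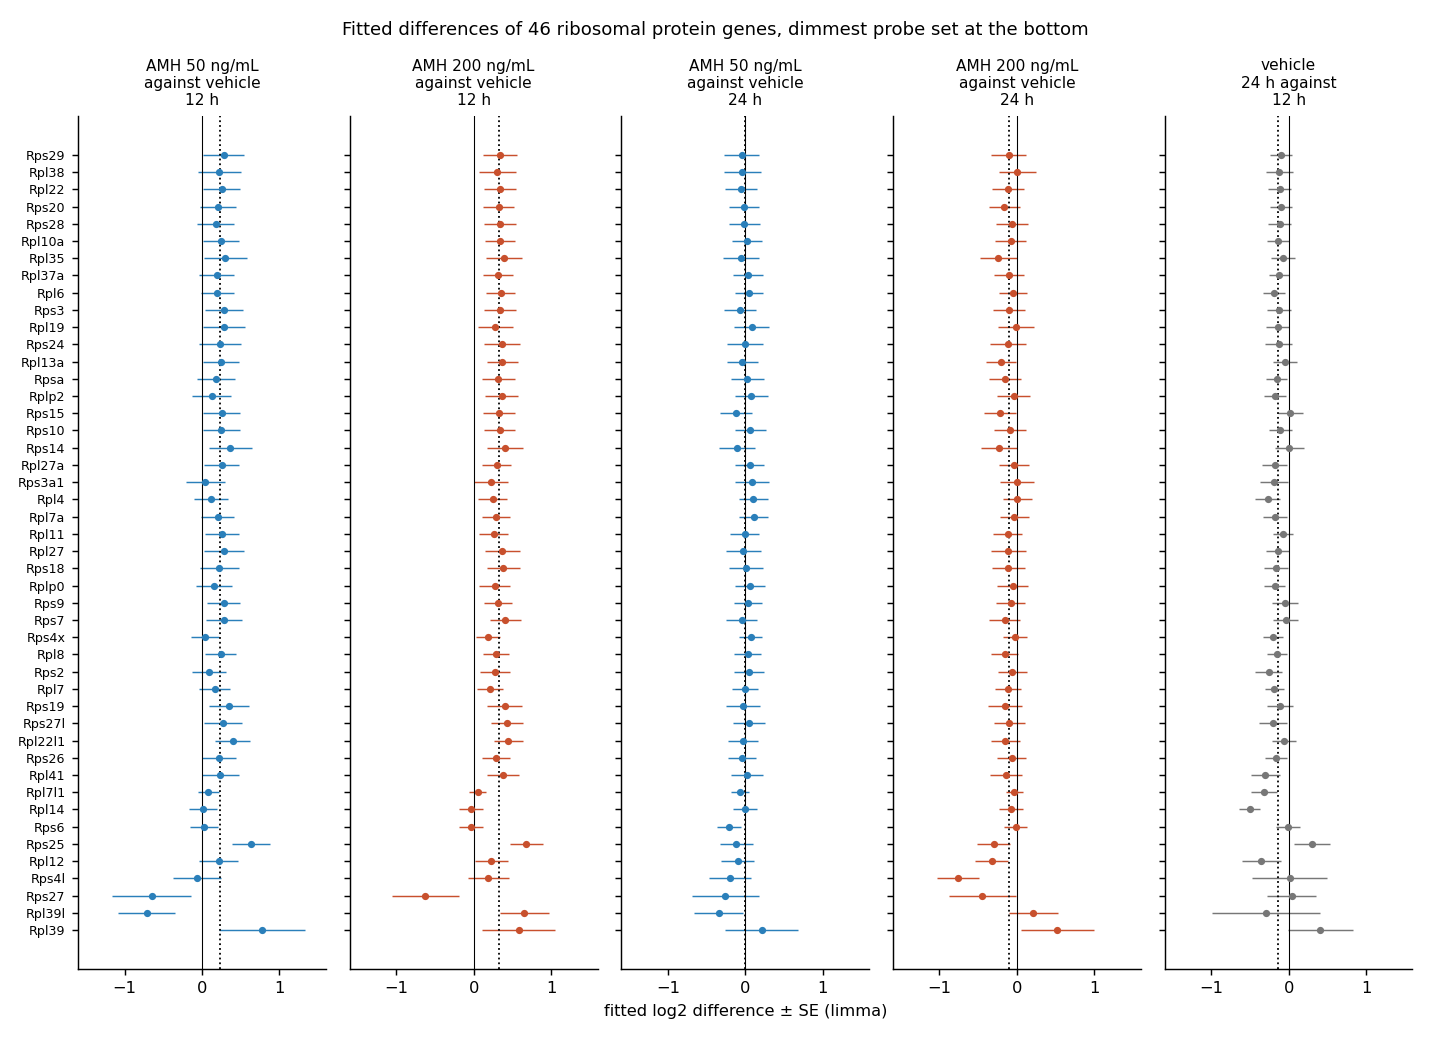
Fitted log2 difference and standard error of each of the 46 ribosomal protein genes in 5 comparisons; the dotted line is the median over the members. The bright members lie close to the dotted line (0.23 and 0.33 at 12 h, -0.01 and -0.10 at 24 h, -0.13 for time), and the wide departures belong to dim members such as Rpl39l, Rps27, Rpl39 and Rps4l.

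The block moved with measures of the array as a whole. A dose was set against the vehicle of its own pool in 11 differences. The member median had the sign of the difference in the array's 98th percentile of signal in 10, and of the 18S control in 9. Of the 46 members, 36 or 37 lay above that percentile on each of the 17 arrays, so members and percentile are not separate measures. The doses of a pool share their vehicle array, so the 11 are not separate observations. The 4 largest shifts were in pool 3 at 12 h with 200 ng/mL (member median 0.80, 18S control 0.93), pool 1 at 24 h with 50 ng/mL (0.49 and 0.50), and pool 2 at 24 h with 50 ng/mL (-0.48 and -0.70) and 200 ng/mL (-0.33 and -0.42). The bright end of the array shifted the same way there, by 0.41, 0.27, -0.23 and -0.20 at the 98th percentile. Hybridisation controls averaged 3879, 2974, 1582 and 1757 on these 4 arrays, against 2201, 1891, 2200 and 2200 on their vehicle arrays. Among the 11, only pool 2 at 12 h with 200 ng/mL had these controls opposite to the member median (2466 against 2423). After quantile normalization, which gives all arrays 1 distribution, the 11 medians lay between -0.06 and 0.11. The fitted medians at 12 h were then 0.034 at 50 ng/mL and 0.033 at 200 ng/mL. This normalization sets the bright end, where most members lie, equal over the arrays, so it can shrink a shared shift whatever its source. The part of array quality in the dose differences was not tested.

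**Figure D3:**
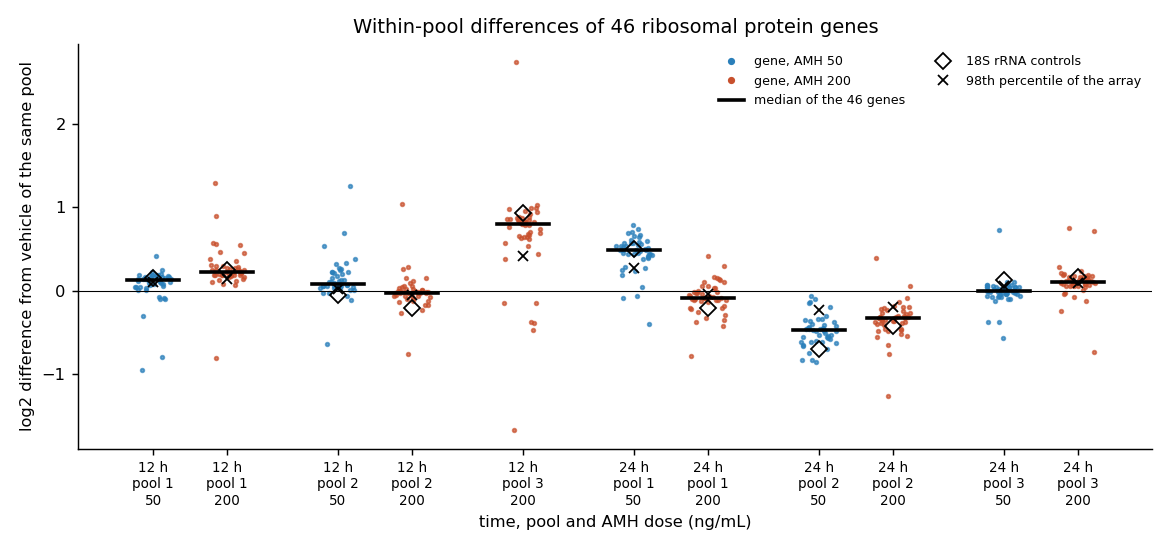
Log2 difference of each ribosomal protein gene from the vehicle of its own pool, for the 11 pool and dose combinations (points are genes, bars their median, diamonds the 18S control, crosses the array's 98th percentile). The medians run from -0.48 to 0.80 and share the sign of the crosses in 10 of 11.

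Marker lists of cell types were set beside the doses, and they did not all keep 1 direction. At 50 ng/mL and 12 h, 7 of 7 oocyte markers were below vehicle (median -0.96). Their summed signal ranged from 1572 to 4688 on 2 arrays, against 219 to 7147 on 3 vehicle arrays. The vehicle range includes pool 3, whose 50 ng/mL array is given apart. With 200 ng/mL at 12 h the oocyte markers went the other way, with 5 of 7 above vehicle (median 0.25). At 200 ng/mL and 12 h, 6 of 6 surface epithelium markers had a fitted value above vehicle (median 0.56). Their sums were 1015 to 7002, against 696 to 2176. Their medians were 0.39, -0.27 and 1.66 in pools 1, 2 and 3, and 0 of 6 were higher in every pool. With 50 ng/mL at 12 h, 6 of 6 were above vehicle (median 0.49). Endothelial markers were below vehicle at 12 h in 4 of 5 at 50 ng/mL (median -0.42) and 5 of 5 at 200 ng/mL (-0.57). Granulosa markers were below it in 4 of 7 (-0.11) and 6 of 7 (-0.27). At 24 h, 6 of 6 leukocyte markers were below vehicle at 50 and at 200 ng/mL (medians -0.86 and -0.98), with sums of 446 to 1109 and 337 to 1031 against 869 to 1942. Surface epithelium markers were below vehicle at 24 h in 6 of 6 at both doses (medians -0.76 and -0.71). Their sums were 1528 to 1782 and 1463 to 1878, against 1894 to 3997. Oocyte markers were below vehicle in 7 of 7 at 50 ng/mL and 24 h (median -1.01, 6 with an unadjusted p under 0.05), with sums of 523 to 2949 against 1016 to 5110. With 200 ng/mL at 24 h the oocyte medians were 0.03, -0.18 and 0.41 in pools 1, 2 and 3. None of these markers passed the test in limma, and their part in the ribosomal protein differences was not tested.

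Several members had single values that stood out, although relative to the member median of each array none passed the test (smallest limma adjusted p = 0.427). Rps25, a small subunit protein that some viral and cellular internal ribosome entry sites need, had signals of 227, 193 and 304 in 12 h vehicle. At 50 ng/mL it had 251 and 482, and at 200 ng/mL 341, 413 and 419. All 3 arrays at 200 ng/mL were above all vehicle arrays. The log2 difference at 200 ng/mL was 0.68 (SE 0.21, limma adjusted p = 0.432), with 0.56, 1.04 and 0.44 in the pools. After 24 h its signals were 250, 379 and 275 in vehicle, 308, 250 and 262 at 50 ng/mL, and 212, 236 and 270 at 200 ng/mL. There the difference at 200 ng/mL was -0.30 (SE 0.21), lower in 3 of 3 pools although the groups overlapped. Relative to the member median of each array the 12 h difference was 0.39 (SE 0.35).

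Rpl22l1 encodes a paralog that can take the place of Rpl22, an RNA-binding large subunit protein. Rpl22l1 had 2161, 1959 and 2236 in 12 h vehicle, 2227 and 2837 at 50 ng/mL, and 2481, 2358 and 4138 at 200 ng/mL. It was higher at 200 ng/mL in 3 of 3 pools (0.20, 0.27 and 0.88), with a fitted difference of 0.45 (SE 0.19, limma adjusted p = 0.432). Rpl22 itself had 3445, 4350 and 4201 in vehicle and 3941, 4313 and 7535 at 200 ng/mL. Its difference was 0.34 (SE 0.21), with pools at 0.19, -0.01 and 0.84, and both paralogs were highest on the same array. Relative to the member median, Rpl22l1 differed by 0.16 (SE 0.12).

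Among the other paralogs, Rps4l, a paralog of the small subunit gene Rps4x, was dim. It had 81, 84 and 79 in 24 h vehicle, 101, 55 and 57 at 50 ng/mL, and 40, 43 and 41 at 200 ng/mL. The vehicle and 200 ng/mL values were tight and did not overlap. The difference was -0.76 (SE 0.27, unadjusted p = 0.0141, limma adjusted p = 1), with -0.79, -0.76 and -0.74 in the pools. At 12 h the vehicle arrays of Rps4l alone ran from 37 to 217, and the difference at 200 ng/mL was 0.19 (SE 0.27). Rps4x, a core small subunit gene, had 2083, 2568 and 2285 in 24 h vehicle and 2246, 2188 and 2372 at 200 ng/mL, higher in 2 pools and lower in 1.

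Rpl39l, a paralog of the exit tunnel protein gene Rpl39, had 50, 118 and 7.3 in 12 h vehicle, 22 and 70 at 50 ng/mL, and 147, 118 and 21 at 200 ng/mL. Its 200 minus 50 ng/mL difference of 1.37 (SE 0.37, limma adjusted p = 0.662) was the largest of any member in the 7 comparisons. It came from signals between 21 and 147, beside a median over all probe sets of 18 to 31 on these arrays. Rpl39 had 34, 21 and 4.8 in 12 h vehicle and 12, 17 and 123 at 200 ng/mL, so that its difference of 0.58 (SE 0.47) came from 1 array. Rps27, a zinc-finger small subunit gene, differed at 200 ng/mL by -0.62 (SE 0.43) at 12 h and -0.45 (SE 0.43) at 24 h, and its pools did not move 1 way at either time. Its p53-responsive paralog Rps27l followed the bright block, at 0.43 (SE 0.21) and -0.10 (SE 0.21). These dim probe sets had the largest errors of the members.

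**Figure D4:**
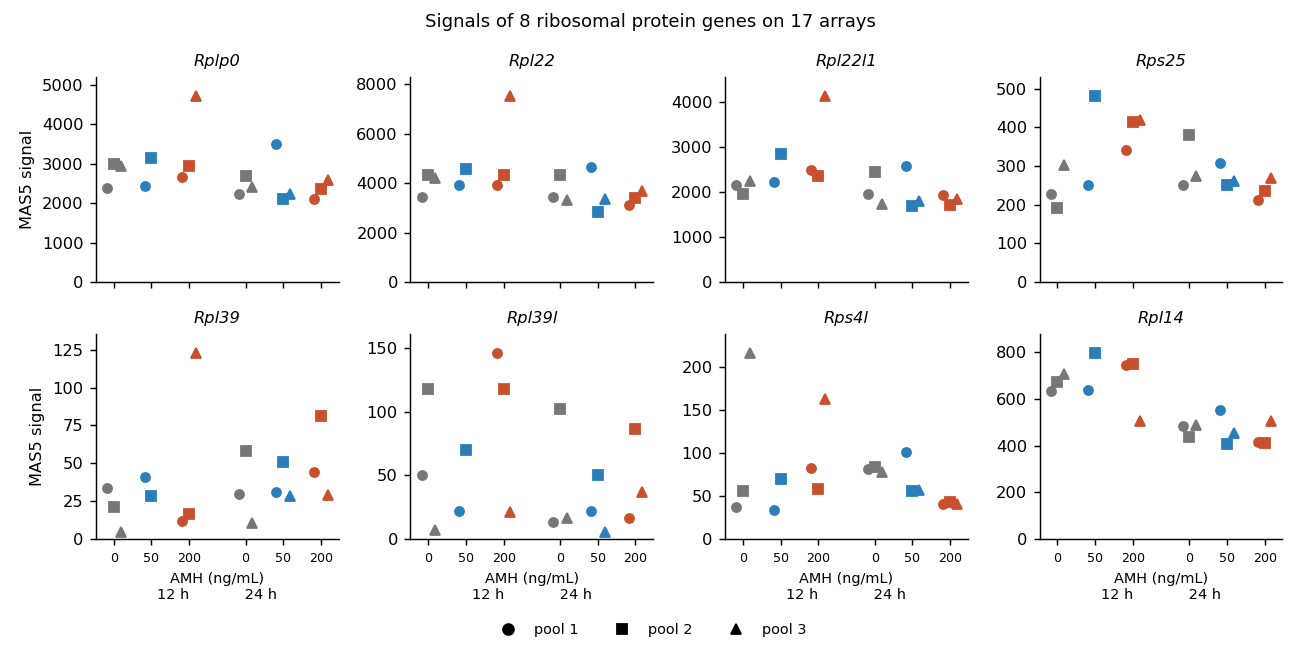
Signals of 8 ribosomal protein genes on the 17 arrays by dose and time (linear axes from 0, one marker shape per pool). Rps25 lies higher in all 3 cultures with 200 ng/mL at 12 h (341 to 419, against 193 to 304 in vehicle), Rps4l lies lower in those at 24 h (40 to 43, against 79 to 84), and Rpl14 is lower in 24 h than in 12 h vehicle.

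Rps6, the small subunit protein phosphorylated by S6 kinases downstream of mTORC1, had 443, 500 and 528 in 12 h vehicle and 480, 432 and 555 in 24 h vehicle. At 24 h with 50 ng/mL it had 359, 392 and 516, lower in 3 of 3 pools, with a difference of -0.21 (SE 0.15, limma adjusted p = 1). With 200 ng/mL the difference was -0.02 (SE 0.15). Rpl12, which sits at the base of the stalk, had 95, 117 and 103 in 24 h vehicle and 71, 86 and 85 at 200 ng/mL, without overlap. Its difference was -0.33 (SE 0.21, limma adjusted p = 1), but the stalk genes Rplp0 and Rplp2 differed by -0.05 and -0.04.

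The last comparison set vehicle at 24 h against vehicle at 12 h, and asked what time in culture with FSH and LH did without AMH. The members were lower at 24 h in 40 of 46 cases, with a median log2 difference of -0.13, beside 0.01 over all probe sets. This median was -0.22 without vehicle replicate 1 of 12 h and -0.25 without replicate 2 of 24 h. It was -0.09 without replicate 2 of 12 h, and -0.08 and -0.07 without replicates 1 and 3 of 24 h. Quantile normalization gave -0.04, array weights -0.07, and centring on the ribosomal protein median, as its construction sets, 0.04. Hybridisation controls of the vehicle arrays averaged 2002, 2423 and 2201 at 12 h and 1891, 2200 and 1804 at 24 h. Their 18S controls averaged 3357, 4449 and 3751 at 12 h and 3428, 4197 and 2840 at 24 h. The part of array quality in the time difference was not tested. No member passed in limma, and 1 (Rpl14) had an unadjusted p under 0.05, while 292 probe sets (1.3%) were called and 18.6% had such a p. With the replicate number as a block 642 probe sets were called, again with 0 members. Leaving out 1 vehicle array at a time gave 343, 35 and 555 without the 12 h arrays and 1, 0 and 0 without the 24 h arrays. No member had every 24 h array above every 12 h array (13.5% of all probe sets), and 1 had every 24 h array below (11.5%). Granulosa markers moved with time as well: 6 of 7 were higher (median 1.05, 2 called), with summed signals of 6440 to 6926 at 24 h and 2321 to 4595 at 12 h.

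Rpl14, a large subunit gene, was the member with no overlap. Its signals were 634, 672 and 705 at 12 h and 483, 436 and 487 at 24 h. The difference was -0.50 (SE 0.14, unadjusted p = 0.00558, limma adjusted p = 0.109), and relative to the member median it was -0.33 (SE 0.25). With AMH at 24 h Rpl14 had 551, 407 and 452 with 50 ng/mL and 415, 409 and 507 with 200 ng/mL, on both sides of its 24 h vehicle values and below every 12 h vehicle value.

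Ribosome biogenesis genes, whose products make and assemble the subunits, had lower values over time with a larger median than the ribosomal proteins. Of the 55 ribosome biogenesis genes tested 49 were lower in 24 h vehicle (median -0.35), and 26 had every 24 h array below every 12 h array, where 11.5% of all probe sets did. None of the 55 passed in limma, and 15 had an unadjusted p under 0.05, where 18.6% of all probe sets did. The smallest p-values were those of Tsr1, a factor in small subunit maturation, at -0.57 (SE 0.15, limma adjusted p = 0.101), Ftsj3, an rRNA methyltransferase, at -0.54 (SE 0.15), and Noc4l, a nucleolar small subunit factor, at -0.52 (SE 0.17). Of 22 other TOP mRNA genes, which encode mostly translation factors, 18 were lower (median -0.12). Of 76 mitochondrial ribosomal protein genes, 40 were lower and 36 higher (median -0.01). The differences between these lists were not tested.

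With AMH at 12 h these lists lay on the same side as the members, with smaller medians. At 200 ng/mL 21 of 22 TOP genes (median 0.19), 43 of 55 biogenesis genes (0.13) and 54 of 76 mitochondrial ribosomal protein genes (0.12) were above vehicle. At 50 ng/mL the counts were 20 of 22 (0.18), 32 of 55 (0.07) and 60 of 76 (0.18). The nucleolar genes Gnl3 and Nolc1 had the smallest p-values of the biogenesis list at 200 ng/mL, at 0.51 (SE 0.12) and 0.66 (SE 0.20), both limma adjusted p = 0.432. No gene of these lists passed the test.

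On the array given apart the block broke up. Against the vehicle of its pool, 24 of the 46 members were more than 1 higher on the log2 scale, 18 more than 2 higher, and 8 more than 1 lower. Rps26, at the mRNA exit channel of the small subunit, had a signal of 39045 against 2363 in vehicle (4.04), and Rpl22l1 had 33172 against 2236 (3.88). Rps3, at the mRNA entry channel, had 44745 against 3515 (3.66). At the other end Rpl7l1, a paralog of Rpl7, had 38 against 845 (-3.99), Rpl14 had 37 against 705 (-3.75), Rps6 had 27 against 528 (-3.67) and Rps25 had 9.5 against 304 (-3.65). Rplp0 hardly moved, at 3467 against 2943 (0.24). The large minus small subunit gap was -1.04 there, outside the range of the other 17 arrays. With this array in the fit the 50 ng/mL median at 12 h was 0.41 in place of 0.23, and that of 200 minus 50 ng/mL was -0.10 in place of 0.09, again with 0 members called in limma.

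**Figure D5:**
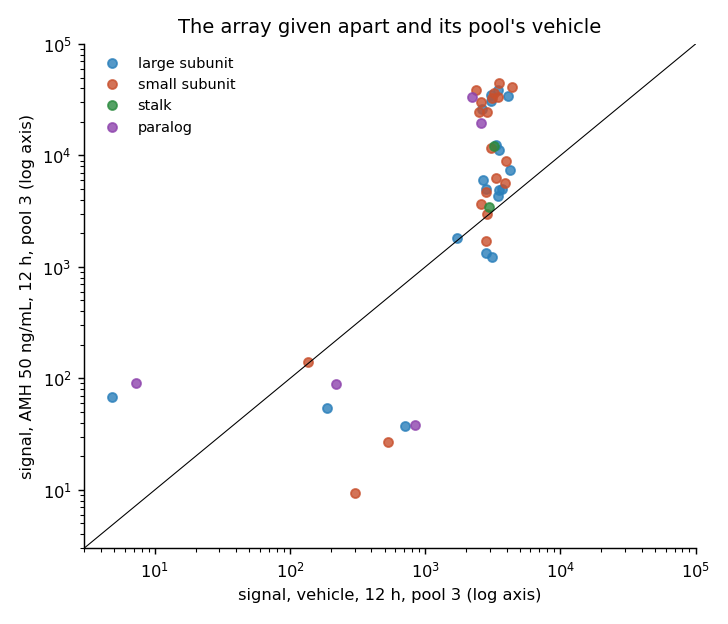
Signal of each of the 46 ribosomal protein genes on the array given apart against the vehicle array of its pool (both axes log, signal; colour by subunit or role). The genes run from 4.04 above (Rps26) to 3.99 below (Rpl7l1) the line of equal signal on the log2 scale.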

How the data were processed

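Follicle RNA (5 ng) was amplified, labelled and hybridised, 1 array per culture. The authors deposited a signal intensity per probe set, computed with MAS5 per the submitters' processing notes (its version is not given in the sources used here), on a linear scale. The 2% trimmed mean of each array is 150. The intensities were used as deposited, as log2(signal + 16), so that differences of dim probe sets are understated. Of 45101 probe sets, 64 controls served as quality measures. The 22518 above the 50th percentile of mean log2 signal over all 18 arrays were tested.

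The series' design text states that cultures are comparable within an experiment, and same-pool arrays correlated in their deviations (r from 0.07 to 0.50 over probe sets), which made the pool a blocking factor for the doses. Tests used limma 3.58.1 (R 4.3.3; lmFit, then eBayes with trend). The 17 arrays left 7 residual degrees of freedom. The 6 vehicle arrays gave the time comparison, with 4 and no block. Vehicle arrays of the same number at 12 and 24 h correlated at 0.32, 0.26 and 0.21, so the blocked count is given too. Two-sided p-values were adjusted by Benjamini-Hochberg over all probe sets tested, at 0.05. The replicates are separate pools. The number of arrays limits the precision.

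Signals of 11 members came from probe sets with the suffix x and 2 with s, which can cross-hybridise with family members or pseudogenes. The members, lists and the array given apart were chosen with earlier results of these data known. Named were fixed members, the 5 highest and 5 lowest in each comparison, the 5 brightest and dimmest, and up to 3 genes per other list and comparison with the smallest p. Rps26, Rps7, Rps9, Rpl27a and Rpl37a fell outside this rule and were chosen after their values were seen. The fits were tested on simulated data. Alternatives changed the arrays, block, pseudocount, normalization, filter, variance trend, array weights and choice of probe set, or dropped 1 pool or 1 vehicle array. Probe-level data are not analysed here. Figures were drawn with matplotlib 3.10.9.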

Additional observations from a re-analysis of the deposited data

Results flagged for a closer look

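Rps25 was higher at 200 ng/mL AMH than vehicle in 3 of 3 pools at 12 h and lower in 3 of 3 pools at 24 h. Its effect at 24 h minus that at 12 h was -0.98 (log2, SE 0.30, limma adjusted p = 0.628), from 0.68 at 12 h and -0.30 at 24 h. Rpl8, a large subunit protein near the peptidyl transferase centre, did the same at 200 ng/mL, with a difference between times of -0.45 (SE 0.24, limma adjusted p = 0.628), from 0.29 and -0.16. Rpl7l1 was higher at 50 ng/mL in both pools measured at 12 h and lower in 3 of 3 pools at 24 h, with a difference of -0.15 (SE 0.18, limma adjusted p = 0.999). None of the 3 differences between times passed the test. The medians over the members at 12 and 24 h were 0.33 and -0.10 at 200 ng/mL, and 0.23 and -0.01 at 50 ng/mL. All 3 genes had the signs of these medians.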

How the results depend on the processing

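Counts of called ribosomal protein genes were 0 in all 7 comparisons under the alternatives run, except 1 (Rpl39l, limma adjusted p = 0.0498) for 200 against 50 ng/mL at 24 h with array weights. For 50 ng/mL at 12 h the member median was 0.41 with all 18 arrays, 0.089 with no replicate block, 0.034 after quantile normalization, 0.30 after centring on the median of the probe sets tested, 0.15 with array weights and 0.027 after centring on the ribosomal protein median (added after seeing the data), and 0.12 to 0.29 without 1 pool. For 200 against 50 ng/mL at 12 h it was -0.10 with all 18 arrays. At 24 h medians near 0 changed sign when 1 pool was left out, as given above. Called probe sets, 0 for each dose comparison, were 1 for 50 ng/mL at 24 h with the 24 h arrays only (chosen after earlier results were known). With array weights they were 1011 for 50 ng/mL, 8 for 200 ng/mL and 513 for 200 against 50 ng/mL at 24 h. Centring on the ribosomal protein median gave 4 for 200 ng/mL at 12 h. Without pool 1, 2 or 3 the 12 h counts ranged from 0 to 4 (50 ng/mL), 0 to 226 (200 ng/mL) and 0 to 17 (200 against 50 ng/mL), the highest each time without pool 2. In the time comparison, 292 became 642 with the replicate block, 680 with all 17 arrays, 156 with a pseudocount of 1, 60 with no filter, 132 with the filter at the 75th percentile, 778 with array weights and 547 after centring on the ribosomal protein median, and 0 to 555 without 1 vehicle array. The causes were not tested. Members at a signal near the array median had errors too large to show differences of the size seen in the bright members.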
